A study of Mus musculus with 20 samples.

Results

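Whether the heart responds differently to protein restriction on a high-fat diet than on a diet of normal fat content was examined as an interaction, that is, the log2 difference HF + LP minus HF less the log2 difference LP minus NP. A negative interaction means that HF + LP lay lower relative to HF than LP did relative to NP, and a positive one means the opposite. The interaction uses all 20 of the 20 libraries of the series, each from the left ventricle of 1 male mouse, with 5 mice per group. The normal protein (NP) group ate 20% casein as its protein and the low protein (LP) group 5%, both at normal fat content, whereas the high-fat (HF) group ate 60% fat with 20% casein and the HF + LP group 60% fat with 5% casein. The labels give every mouse an age of 18 months, later than the age the study's methods give for the end of the diets, and name no strain or genetic change. The label of LP mouse 5 alone adds a sample number, whose meaning is not given. RNA was counted by 3′ end sequencing, in which each transcript gives reads near its poly(A) tail only, so long and short transcripts are counted alike. Frozen ventricle holds many cell types, so fewer cells of a type and less RNA per cell cannot be told apart.

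Several pathways meet in this design. Heart muscle draws most of its ATP from fatty acids, and the nuclear receptor PPARα, which fatty acids activate, drives the genes that import and burn them. Scarce amino acids are sensed through the kinase GCN2 and the transcription factor ATF4, which induces genes for amino acid synthesis. Type I interferon acts through a transcription factor complex that binds the interferon-stimulated response element (ISRE) in promoters and induces antiviral and antigen presentation genes.

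Some libraries stood apart from their group. Myl2, the ventricular myosin light chain, was abundant in every mouse and marked all as ventricle, but LP 13 had a normalized count of 30491 where the other 19 mice had at least 80095. Myl7, an atrial light chain, reached 33675 in LP 13, 30515 in HF 1, 13819 in HF 3, 13176 in HF + LP 3, and 10208 in LP 15, against a lowest count of 20.5 in LP 5. Adipoq, an adipocyte hormone, was 1208 in LP 13, 481 in LP 20, and 280 in HF 3. LP 20 also held T cell transcripts, with a Trbc2 count of 6009, whereas the other 19 mice had at most 46.6. Per2, a circadian clock gene, was lowest in HF + LP 3, 4, and 5 (at most 49.3) and LP 2 and 5 (at most 60.5), whereas the other 15 mice had at least 99.5. Adipocyte markers were highest in LP 13 and LP 20 and T cell transcripts in LP 20, whereas high atrial levels occurred in mice of all groups. The 5 mice with the lowest Per2 counts were all on low protein, 2 in LP and 3 in HF + LP. HF mice, on normal protein, had Per2 counts of 99.5 to 195.8, all below those of NP mice (274.1 to 363.2). In both high-fat groups mice 3, 4, and 5, whose library names share the number 3, had lower Per2 counts than mice 1 and 2. NP and LP mice with that number had counts of 60.5 to 392. Results that depended on LP 13 and LP 20 are also given without them, a setting chosen after the data were seen. With the atrial and adipocyte marker levels as covariates, likewise chosen afterwards, the median interaction went from −0.74 to −0.33 for MHC class I genes and from −1.10 to −0.08 for lipogenic genes, and from −0.70 to −0.77 for the antiviral effectors described below.

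**Figure D1:**
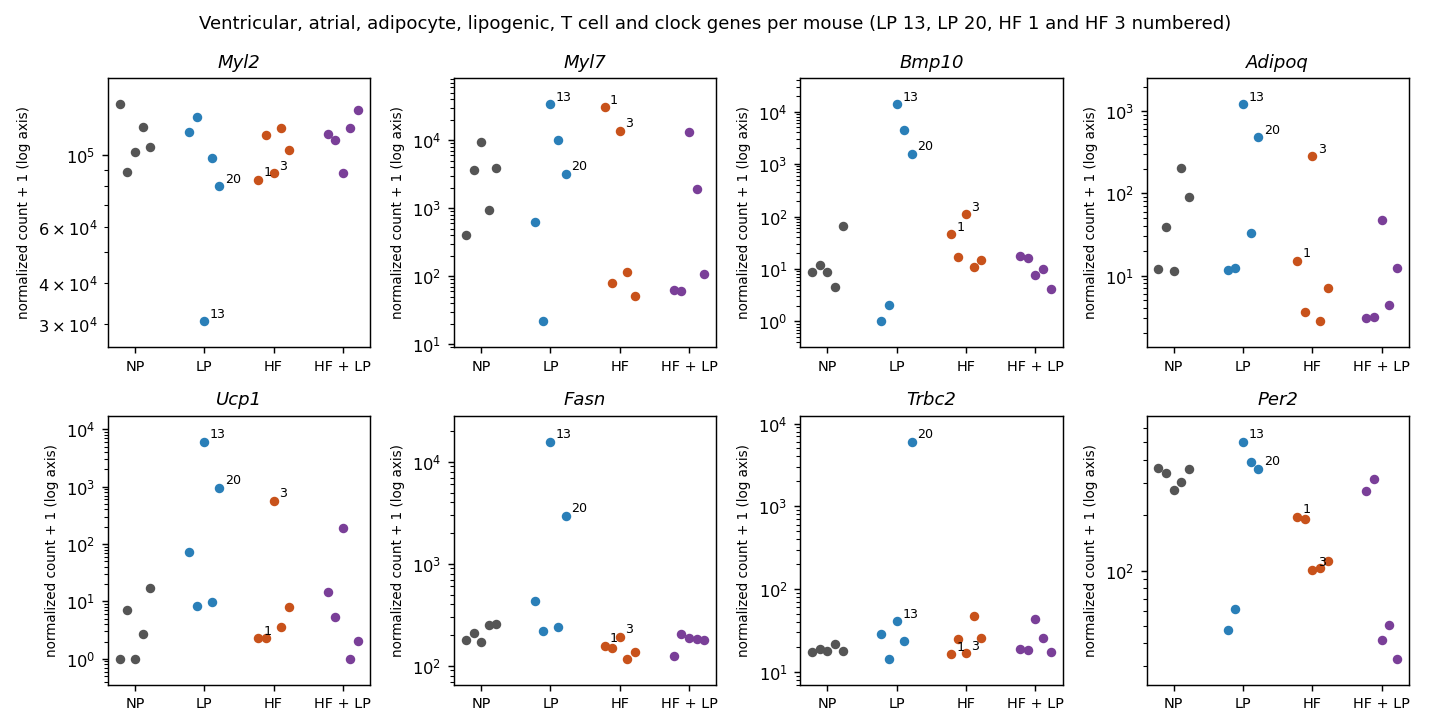
Normalized counts plus 1 on log axes for genes of ventricle (Myl2), atrium (Myl7, Bmp10), adipocytes (Adipoq, Ucp1), fatty acid synthesis (Fasn), T cells (Trbc2), and the clock (Per2), with 1 point per mouse and the 4 diet groups along the horizontal axis. LP 13, LP 20, HF 1, and HF 3 are numbered, and LP 13 has the highest Adipoq count (1208) and the lowest Myl2 count (30491) of the 20 mice.

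No gene passed the test for an interaction. Of 13991 genes tested, 10159 had a base mean (mean normalized count over the 20 mice) over 50, and 0 of these (0%) reached an adjusted p under 0.01 in edgeR's quasi-likelihood test, the smallest adjusted p being 0.258. At an unadjusted p under 0.05 the interaction was higher for 320 genes (3.1%) and lower for 300 genes (2.95%). DESeq2 called 1 gene, Bmp10, and had 283 higher and 357 lower genes at an unadjusted p under 0.05, and limma-voom called 0 with a smallest adjusted p of 0.0561, 298 higher genes, and 238 lower ones. Every gene described below is therefore a measured difference that did not pass the adjusted threshold in edgeR, and its SE gives its size relative to the spread between mice. Among the named genes with an interaction at an unadjusted p under 0.05, the edgeR adjusted p ran from 0.258 for Gm42972 to 0.689 for Isg15 and Irf7. In simulated counts of the same 13991 genes, the edgeR test recovered 26 of 100 interactions of 1 log2 unit and 94 of 100 of 2 log2 units.

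The components of the interaction share no mouse. HF + LP minus HF had 215 genes higher (2.1%) and 228 lower (2.24%) at an unadjusted p under 0.05, and LP minus NP had 341 higher (3.36%) and 261 lower (2.57%), with 0 genes called in either by edgeR (smallest adjusted p 0.0841 and 0.383). DESeq2 called 16 genes in the first and 4 in the second. Across the 10159 genes, which are not independent replicates, the log2 differences of the components had a Pearson correlation of −0.203 and a Spearman correlation of −0.132. Components of opposite sign occurred in 54.9% of all 10159 genes. The inverse correlation rested on the LP mice that stood apart, because Pearson's correlation was 0.0115 without LP 13 and 0.205 without LP 13 and LP 20. With both left out, 145 genes had a higher and 145 a lower interaction at an unadjusted p under 0.05.

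**Figure D2:**
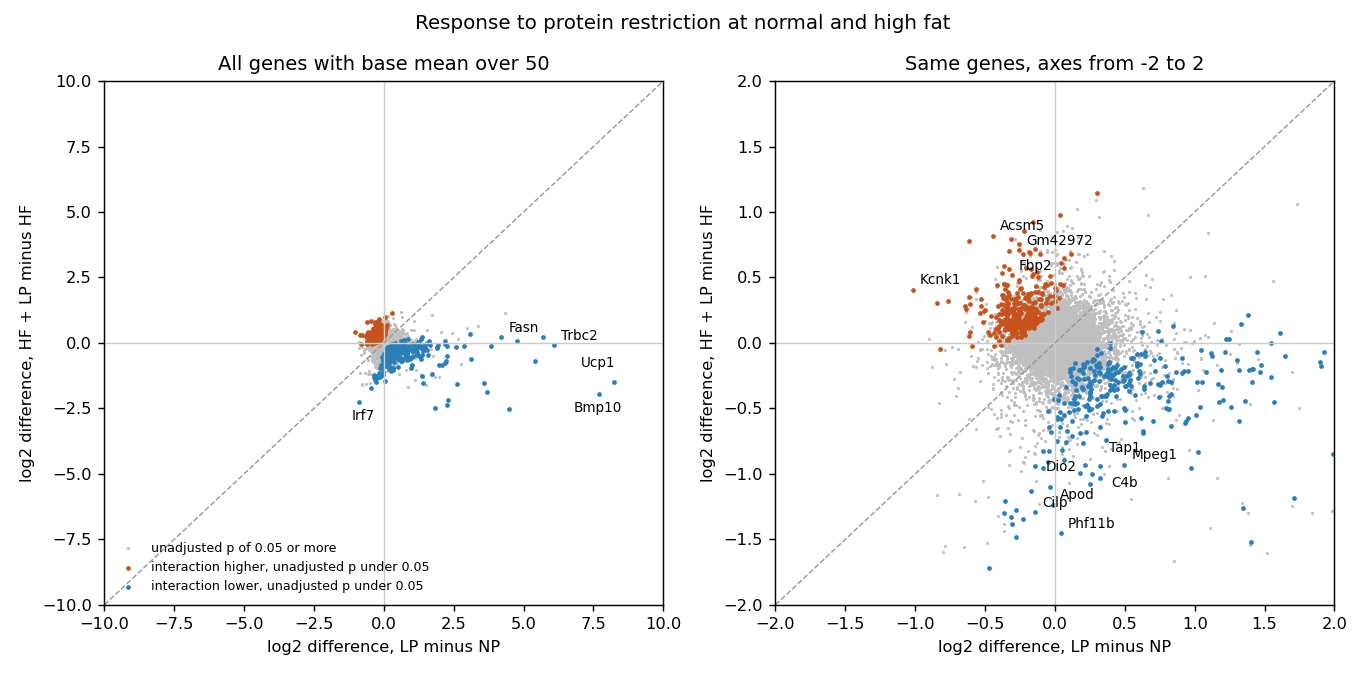
Each point is 1 of the 10159 genes with a base mean over 50, with the log2 difference LP minus NP on the horizontal axis and HF + LP minus HF on the vertical axis, for the full range on the left and from −2 to 2 on the right. The dashed line marks equal responses, genes with an interaction at an unadjusted p under 0.05 are orange (320 higher) or blue (300 lower), and the longest blue arm runs along the horizontal axis with Bmp10, Ucp1, Trbc2, and Fasn.

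Genes induced by interferon leaned together to a lower interaction. Of the 39 antiviral effector genes with a base mean over 50, 13 were lower and 0 higher at an unadjusted p under 0.05, against 2.95% and 3.1% of all genes. The median interaction of the 50 members tested was −0.70, beside −0.01 for all genes tested, and 49 of the 50 were below 0. Their medians were −0.98 for HF + LP minus HF and −0.24 for LP minus NP, and 33 of the 39 were lower in HF + LP than in HF at an unadjusted p under 0.05 (2.24% of all genes), whereas 1 was lower in LP than in NP. The median was −0.65 and 7 members were lower without LP 13 and LP 20. The list was compiled with results of these mice known, so its direction is not independent evidence.

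Phf11b, an interferon-induced PHD finger gene, had the smallest p of these genes. Its normalized counts were 55.0, 26.3, 74.7, 68.8, and 57.7 in NP and 33.3, 41.0, 69.8, 74.4, and 70.3 in LP. In HF they were 80.1, 245, 135, 221, and 173, and in HF + LP 58.3, 55.6, 67.5, 75.04, and 54.7. Each HF mouse was above each HF + LP mouse, while NP and LP overlapped throughout. The interaction was −1.50 on the log2 scale (SE 0.41), and −1.27 without LP 13 and LP 20.

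Further effectors and regulators had negative interactions. Adar, an RNA editing enzyme with an interferon-induced isoform, had an interaction of −0.72 (SE 0.20), and Isg15, a ubiquitin-like antiviral modifier, had −1.25 (SE 0.57). Irf7, the factor that amplifies interferon production, was 209, 1219, 479, 1463, and 1325 in HF and 170, 236, 101, 319, and 161 in HF + LP. It was 110 to 514 in NP and 107 to 188 in LP. HF 1 and HF 3 were the lower of the HF mice, HF 1 lay within the HF + LP range, and the interaction of Irf7 was −1.37 (SE 0.64). Irf9, the DNA-binding part of the interferon-activated complex, had −0.80 (SE 0.29). In the list of interferon transcription factors and receptors 5 of 17 members with a base mean over 50 were lower and 0 higher at an unadjusted p under 0.05, with a median of −0.41 over the 21 tested (−0.25 and 1 lower without LP 13 and LP 20). Of the interferon-induced GTPases, which attack intracellular pathogens, 2 of 11 were lower, among them Ifi47 at −1.15 (SE 0.41), and the median of the 13 tested was −0.64 (−0.31 without both mice). Of the cytosolic and endosomal nucleic acid sensing genes 2 of 19 were lower, with a median of −0.38 over 26 (1 lower and −0.32 without both mice).

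The promoters of these genes are shown because many hold the element that the interferon-activated complex binds. The windows are RefSeq promoters on build GRCm38.p6, from 250 bases before to 50 after the start of the gene, read 5′ to 3′ on the strand of the gene. Capitals mark an ISRE, searched as GAAA, any 2 bases, and GAAA, on both strands, with overlapping matches merged. Isg15 lies on the minus strand (chr4:156200769-156201068), Phf11b on the minus strand (chr14:59341281-59341580), B2m on the plus strand (chr2:122147437-122147736), and Tap1 on the plus strand (chr17:34187306-34187605).
Isg15: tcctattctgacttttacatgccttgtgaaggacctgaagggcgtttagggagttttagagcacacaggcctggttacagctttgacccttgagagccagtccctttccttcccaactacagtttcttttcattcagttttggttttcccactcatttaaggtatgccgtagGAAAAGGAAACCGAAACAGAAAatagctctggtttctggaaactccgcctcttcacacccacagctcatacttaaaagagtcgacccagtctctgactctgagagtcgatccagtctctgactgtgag
Phf11b: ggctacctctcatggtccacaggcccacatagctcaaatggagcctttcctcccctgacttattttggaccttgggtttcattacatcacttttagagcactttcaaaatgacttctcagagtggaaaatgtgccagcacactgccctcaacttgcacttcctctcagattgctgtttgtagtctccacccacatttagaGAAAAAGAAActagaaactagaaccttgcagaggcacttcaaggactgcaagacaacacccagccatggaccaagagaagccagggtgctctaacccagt
B2m: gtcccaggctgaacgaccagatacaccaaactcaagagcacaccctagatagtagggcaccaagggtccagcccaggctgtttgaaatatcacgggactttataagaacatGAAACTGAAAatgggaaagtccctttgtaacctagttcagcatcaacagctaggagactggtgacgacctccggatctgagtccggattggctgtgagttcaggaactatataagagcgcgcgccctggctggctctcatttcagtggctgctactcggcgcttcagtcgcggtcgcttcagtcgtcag
Tap1: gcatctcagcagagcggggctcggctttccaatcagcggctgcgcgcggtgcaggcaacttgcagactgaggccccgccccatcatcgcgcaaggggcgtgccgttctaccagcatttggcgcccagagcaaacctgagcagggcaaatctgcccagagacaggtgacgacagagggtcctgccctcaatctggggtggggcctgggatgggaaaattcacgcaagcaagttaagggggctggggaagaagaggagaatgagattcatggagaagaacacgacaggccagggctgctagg
Isg15 had 3 overlapping matches, Phf11b and B2m 1 each, and Tap1 none in this window. Of the antiviral effectors tested, 39 had a promoter in the table and 19 of these (48.7%) held the element, against 1131 of 32851 promoter windows (3.44%). The 19 effectors with the element had a median interaction of −0.80 and the 20 without it −0.61. Among all genes with a base mean over 50 and a promoter, 3.72% held it, compared with 7.79% of those with a lower and 3.00% of those with a higher interaction at an unadjusted p under 0.05. A match is a description of letters and says nothing of binding in these hearts.

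Antigen presentation by MHC class I, which interferon also induces, had 7 of 19 members lower and 0 higher at an unadjusted p under 0.05, with a median of −0.74 over the 23 tested. Tap1, which pumps peptides into the endoplasmic reticulum, led the list. Its counts were 149, 336, 136, 263, and 219 in HF and 109, 113, 118, 119, and 113 in HF + LP. NP mice had 96.7 to 197 and LP mice 105 to 254, so Tap1 was more even in HF + LP than in any other group, and HF did not overlap with it. The interaction of Tap1 was −1.26 (SE 0.34). B2m, the light chain shared by class I molecules, had −0.74 (SE 0.26). Psmb8, an immunoproteasome subunit, had −0.90 (SE 0.36) and −0.58 without LP 20, and Psmb9, its neighbour on the other side of the Tap1 promoter, had −1.32 (SE 0.57) and was chosen for that position. LP 20, the mouse with T cell transcripts, had the highest counts of Tap1 (254), Psmb8 (576), and Psmb9 (336) among the LP mice. Without LP 13 and LP 20 the list median was −0.27 and 1 member was lower, so the size of the class I interaction depended on those mice more than that of the antiviral effectors did. MHC class II presentation had 1 of 7 members lower and a median of −0.42, which turned to 0.07 with no member lower when both mice were left out.

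Macrophage genes and, with all mice included, complement genes leaned the same way. Of 29 macrophage and monocyte markers 8 were lower and 0 higher at an unadjusted p under 0.05, with a median of −0.53 over the 39 tested (−0.34 and 6 lower without LP 13 and LP 20). Mpeg1, a pore-forming protein of phagocytes, ranged from 62.3 to 164 in HF and from 49.1 to 70.6 in HF + LP. NP mice had 34.4 to 75.8 and LP mice 47.2 to 122. Its interaction was −1.43 (SE 0.39), and its highest LP count was that of LP 20. C4b, a component of the classical complement cascade, was 348, 494, 517, 371, and 338 in HF and 181, 187, 304, 227, and 111 in HF + LP, without overlap. LP 13 had the highest C4b count of the normal-fat mice (451), and the interaction was −1.35 (SE 0.33) with and −1.13 without it. Cfb, the factor B of the alternative pathway, had −1.94 (SE 0.61, base mean 43.2) and −1.30 without LP 13. Of 14 complement genes 3 were lower and 1 higher, and of 11 chemokine and cytokine genes 3 were lower, among them the macrophage chemokine Ccl6 at −0.63 (SE 0.19). The complement median went from −0.51 to −0.20 without LP 13 and LP 20, with 1 gene lower and 1 higher, and it was −0.26 without LP 13 alone. Without both mice, chemokine and cytokine genes had a median of −0.48, against −0.63 with all mice, and 2 of 9 were lower. Without LP 13 alone their median was −0.60 and 1 was lower.

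Among genes of the extracellular matrix those at an unadjusted p under 0.05 were all lower when all mice were included. Of 33 matricellular proteins, proteases, and inhibitors 6 were lower and 0 higher at an unadjusted p under 0.05, with a median of −0.30 over 40, and 6 were lower and 1 higher without LP 13 and LP 20 (median −0.19). Cilp, a matrix protein of fibroblasts, was 425, 281, 264, 265, and 332 in HF and 104, 174, 138, 133, and 89.7 in HF + LP. Every HF mouse was above every HF + LP mouse, and NP (147 to 321) and LP (152 to 250) overlapped. The interaction of Cilp was −1.15 (SE 0.31). Fstl1, a secreted glycoprotein, averaged 1389 ± 171 (SD, n = 5) in the HF mice and 936 ± 129 in those on HF + LP. Both normal-fat groups lay lower, at 820 ± 99.7 (NP) and 829 ± 90.7 (LP). Its interaction was −0.59 (SE 0.16), and every HF mouse was above every other mouse. Postn, periostin of activated fibroblasts, had −0.96 (SE 0.29), and Mmp14, a membrane-bound collagenase, had −0.84 (SE 0.26). Of the collagen chains 3 of 18 were lower (0 without LP 13 alone and 2 without LP 13 and LP 20). Of the fibroblast markers 2 of 14 were lower (1 without both, with the median going from −0.26 to −0.10).

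Apod and C4b were among the 10 lower genes with the smallest p. Apod, an apolipoprotein that binds small lipids, was 177, 362, 339, 427, and 508 in HF and 126 to 186 in HF + LP. NP mice had 142 to 218 and LP mice 130 to 208, so 4 of the 5 HF mice were above every other mouse and HF 1 was not. The interaction of Apod was −1.22 (SE 0.29) and −1.16 without LP 13 and LP 20. Dio2, the deiodinase that activates thyroid hormone, had −1.27 (SE 0.33), with 77.8 to 119.5 in HF and 34.4 to 58.0 in HF + LP, without overlap. Fam234b, whose locus overlaps Hebp1 on the other strand, had −1.22 (SE 0.27), and it was at 34.1 to 52.5 in NP and 54.6 to 102 in LP, so here the groups that did not overlap were those of normal fat. Hebp1, chosen for that position, had an interaction in the same direction, −0.52 (edgeR unadjusted p = 0.0278). Egr1, an immediate early transcription factor, had −0.96 (SE 0.27), and 4 of 16 immediate early genes were lower (3 without LP 13 and LP 20).

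**Figure D3:**
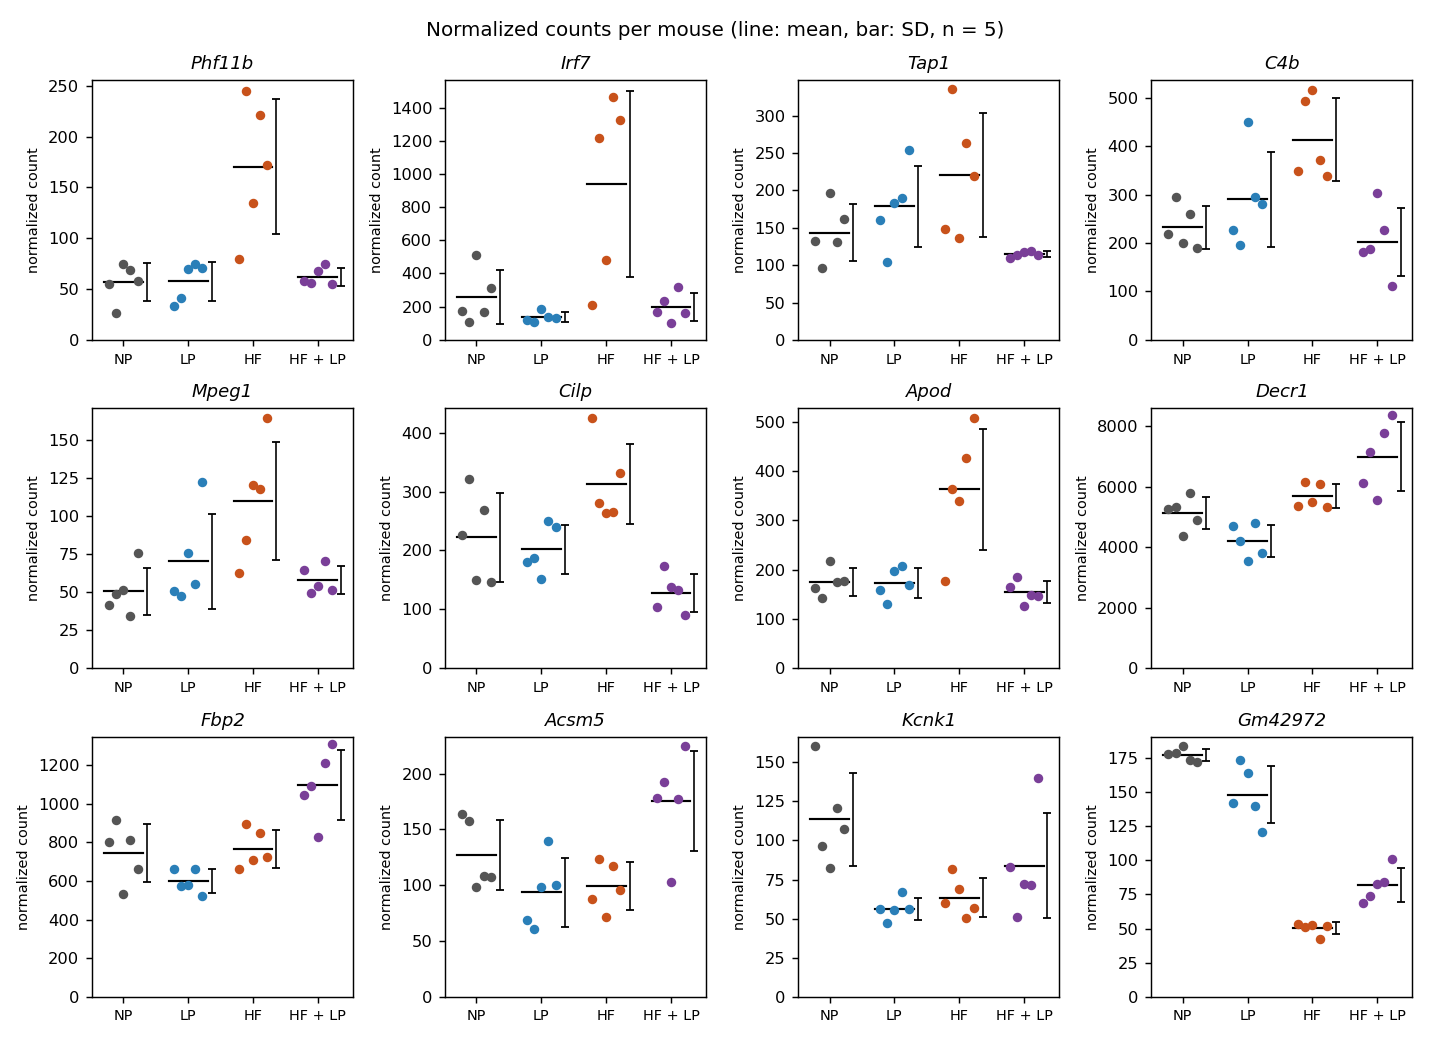
Normalized counts of 12 genes on linear axes from 0, with 1 point per mouse, a line at the mean and a bar for the SD of each group (n = 5). For Phf11b, C4b, and Cilp every HF mouse is above every HF + LP mouse, Decr1, Fbp2, and Acsm5 have their highest mean in HF + LP, and Gm42972 is lowest in HF (50.3 ± 4.57).

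Fatty acid oxidation genes leaned to a higher interaction. Of 26 members with a base mean over 50, 12 were higher and 0 lower at an unadjusted p under 0.05, against 3.1% and 2.95% of all genes, and the median of the 27 tested was 0.32, with 24 above 0. Their medians were 0.13 for HF + LP minus HF and −0.21 for LP minus NP, so the components lay on opposite sides of 0. The median was 0.29 and 5 were higher without LP 13 and LP 20. Decr1, which prepares polyunsaturated fatty acids for β-oxidation, was 5265, 5311, 4356, 5777, and 4911 in NP and 4695, 4189, 3553, 4790, and 3816 in LP. In HF it was 5351, 6153, 5502, 6092, and 5326, and in HF + LP 6121, 7132, 5564, 7772, and 8347. Both pairs of groups overlapped, LP leaned below NP and HF + LP above HF, and the interaction was 0.58 (SE 0.17). Acaa2, the mitochondrial thiolase of the last step of β-oxidation, had 0.58 (SE 0.19). Slc25a20, the carnitine-acylcarnitine carrier, had 0.48 (SE 0.15), and Pex11a, a factor of peroxisome division, had 0.69 (SE 0.21).

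PPAR-responsive genes, which share members with that list, had 10 of 24 higher and 1 lower, with a median of 0.39 over 26 (0.30, with 6 higher and 0 lower, without LP 13 and LP 20). Fbp2, the muscle fructose bisphosphatase, was 661, 892, 709, 850, and 723 in HF and 1044, 1092, 829, 1211, and 1308 in HF + LP. NP mice had 531 to 914 and LP mice 520 to 664. HF + LP 3, the lowest of its group, lay within the HF range, the other 4 above it, and the interaction was 0.83 (SE 0.20). Acsm5, a medium-chain acyl-CoA synthetase of mitochondria, had 1.26 (SE 0.33), with means of 99.2 ± 21.4 (HF), 175 ± 44.8 (HF + LP), 127 ± 31.0 (NP), and 93.5 ± 31.2 (LP) as SD with n = 5. Of 42 genes of glycolysis, pyruvate dehydrogenase, and the citrate cycle 6 were higher and 0 lower, with a median of 0.17 over 44 (2 higher and 0.12 without LP 13 and LP 20).

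Mitochondrially encoded transcripts, ribosomal and transfer RNAs included, followed the same direction as a share of each library. The deposited counts hold no mt-Nd4l, mt-Co2, mt-Co3, mt-Atp6, or mt-Atp8, so the share leaves these protein genes out. NP mice had 43.2 ± 2.48% and LP mice 40.3 ± 3.94% (SD, n = 5), while HF mice had 38.7 ± 0.751% and HF + LP mice 43.3 ± 3.37%. It was 4.56 percentage points higher in HF + LP than in HF and the difference LP minus NP was −2.91 points. The difference of these differences was 7.46 percentage points (two-sided permutation test with 100000 permutations over 20 mice, p = 0.00743, adjusted over the 2 library measures tested p = 0.0149). The HF mice lay between 38.1 and 39.8%, and all HF + LP mice but HF + LP 4, at 38.5%, were above them. Without LP 13 and LP 20 the difference was 6.78 points (permutation test, p = 0.0178).

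Of the 13 mitochondrially encoded protein genes 8 were in the deposited counts. Among these 8, 5 were higher and 0 lower at an unadjusted p under 0.05, with a median of 0.54 (0.42 and 3 higher without LP 13 and LP 20). mt-Nd1, a complex I subunit, had 0.52 (SE 0.17), and mt-Nd5 had 0.68 (SE 0.22). Nuclear-encoded respiratory genes were above 0 more uniformly than strongly. All 36 complex I genes had a positive interaction, 3 of them at an unadjusted p under 0.05, with a median of 0.30. Of the genes for complexes II to V 7 of 41 were higher (median 0.27) and of the mitochondrial ribosomal proteins 7 of 73 (median 0.15). Without LP 13 and LP 20, the mice with the lowest complex I level, 0 of 36, 1 of 41, and 0 of 73 were higher and the medians were 0.13, 0.17, and 0.07. With the clock gene level of each mouse as a covariate, also chosen after the data were seen, 12 of 36, 8 of 41, and 11 of 73 were higher. That covariate raised the counts over all 10159 genes as well, to 462 higher and 362 lower, from 320 and 300. Scaling without the mitochondrially encoded genes moved the median interaction of all genes to −0.02.

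**Figure D4:**
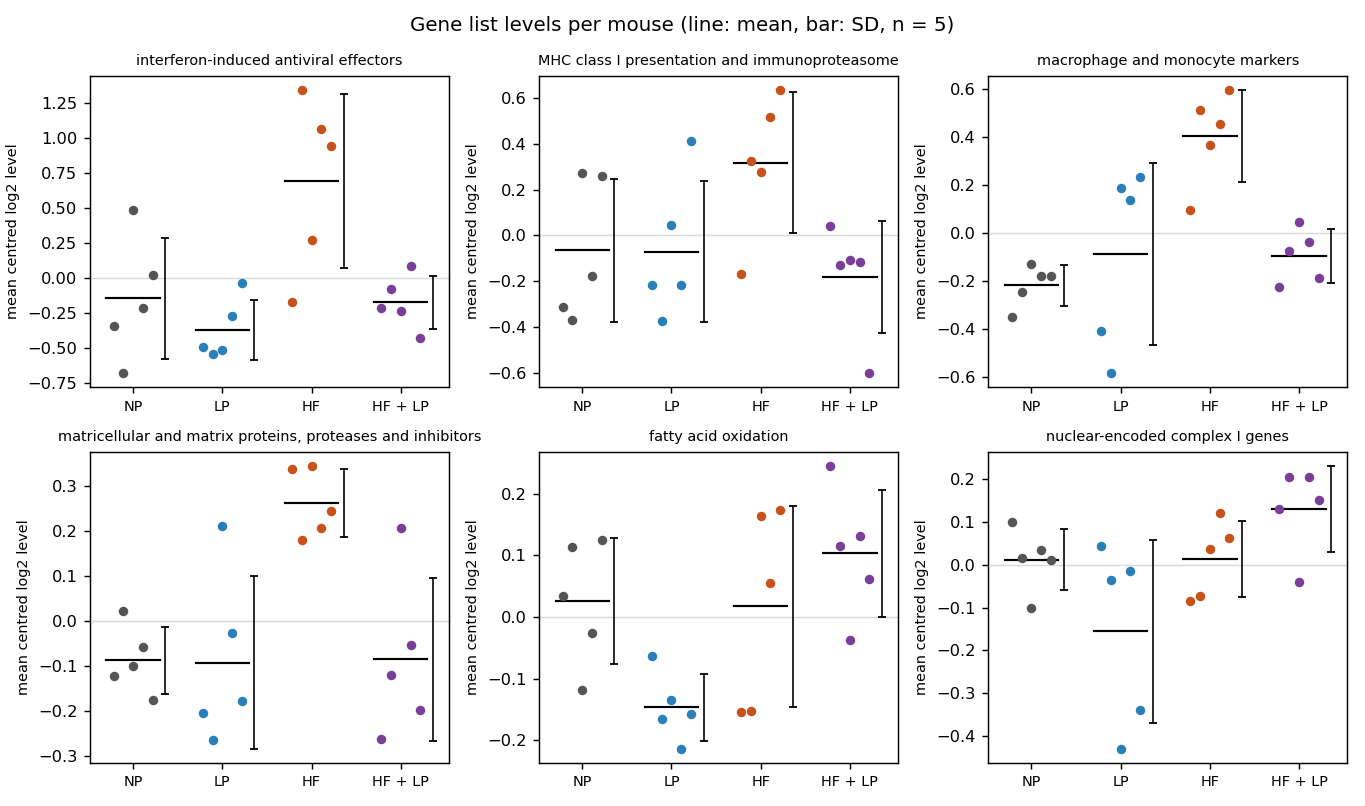
Level of 6 gene lists in each mouse, as the mean over members of log2(normalized count + 1) after subtracting each gene's mean over the 20 mice, with a line at the group mean and a bar for the SD (n = 5). The interferon effector level spans −0.17 (HF 1) to 1.34 (HF 2) among HF mice and −0.43 to 0.09 among HF + LP mice, and the complex I level is lowest in LP 13 (−0.43) and LP 20 (−0.34).

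Ventricular muscle genes had a positive interaction as well. All 13 cardiomyocyte markers were above 0, with 2 at an unadjusted p under 0.05 and a median of 0.33, and 3 of 29 sarcomere genes were higher with a median of 0.26. Without LP 13 and LP 20 the medians were 0.17 and 0.06, no member was higher, and 1 sarcomere gene was lower, and without LP 13 alone the sarcomere median was 0.12.

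The gene with the smallest p of all was Gm42972, a predicted transcript of unproven status (Ensembl identifier ENSMUSG00000105445, GRCm38, chr3:127266673-127272289, minus strand). It lies inside Ank2, the gene of the membrane adaptor ankyrin-B, on the same strand, so its reads cannot be told apart from unspliced Ank2 RNA, whose coding gene was chosen for that position and had an interaction of 0.19 (SE 0.21). The counts of Gm42972 were 178, 179, 184, 174, and 172 in NP and 142, 173, 164, 140, and 120.5 in LP. In HF they were 53.4, 51.4, 52.4, 42.2, and 52.2, and in HF + LP 68.8, 73.7, 82.7, 84.0, and 101. Every HF + LP mouse was above every HF mouse, and LP leaned below NP with an overlap. The components were 0.71 (SE 0.13) at high fat and −0.26 (SE 0.12) at normal fat. The interaction was 0.97 (SE 0.17), with an edgeR adjusted p = 0.258, and it lay between 0.88 and 1.03 with any 1 mouse left out. In DESeq2 its adjusted p was 0.026.

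Kcnk1, a potassium leak channel of the K2P family, differed most in the normal-fat groups. Its counts were 161, 96.7, 82.6, 121, and 107 in NP and 55.9, 47.2, 55.4, 66.8, and 56.0 in LP, without overlap, and it was 50.2 to 81.7 in HF and 51.3 to 140 in HF + LP. The interaction was 1.42 (SE 0.32) and 1.41 without LP 13 and LP 20. Hdac4, a histone deacetylase that represses muscle growth genes, was likewise at 506 to 633 in NP and 339 to 503 in LP, and its interaction was 0.66 (SE 0.18). Armh4 had 0.92 (SE 0.21), Vwa8, a mitochondrial ATPase, 0.71 (SE 0.18), and the long non-coding RNA Snhg14, which overlaps Ube3a on the other strand, 0.91 (SE 0.23). Cdkn1c, an inhibitor of cyclin-dependent kinases, had 0.79 (SE 0.24), and all 5 HF + LP mice (474 to 657) were above all 5 HF mice (289 to 421).

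The largest negative values belonged to atrial, adipocyte, T cell, and lipogenic genes, which were high in 1 to 3 of the LP mice. Bmp10, a ligand of the TGF-β family made in the atria, was 0, 1.03, 13692, 4485, and 1566 in LP and at most 110 in the other 15 mice. HF 1, with a Myl7 count near that of LP 13, had a Bmp10 count of 44.5. The interaction of Bmp10 was −9.66 (SE 2.14), DESeq2 gave it an adjusted p of 0.00959, and it was −8.25 without LP 13 and −8.24 without LP 13 and LP 20. Ucp1, the uncoupling protein of brown fat, was 6037 in LP 13 and 952 in LP 20, and its interaction moved from −9.70 to −4.05 without them and to −4.64 without HF 3 alone. Fasn, fatty acid synthase, was 15710 in LP 13, 2951 in LP 20, and at most 434 in the other 18 mice, and its interaction moved from −3.98 to −0.27. Scd1, a fatty acid desaturase, moved from −3.94 to −0.17, and Trbc2 from −6.18 to −0.33. Without LP 13 and LP 20 the interactions of Ucp1, Fasn, Scd1, and Trbc2 were no longer at an unadjusted p under 0.05. Of 28 lipogenic genes 13 were lower with all mice and 0 of 24 without LP 13 and LP 20, where the median went from −1.10 to −0.04.

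**Figure D5:**
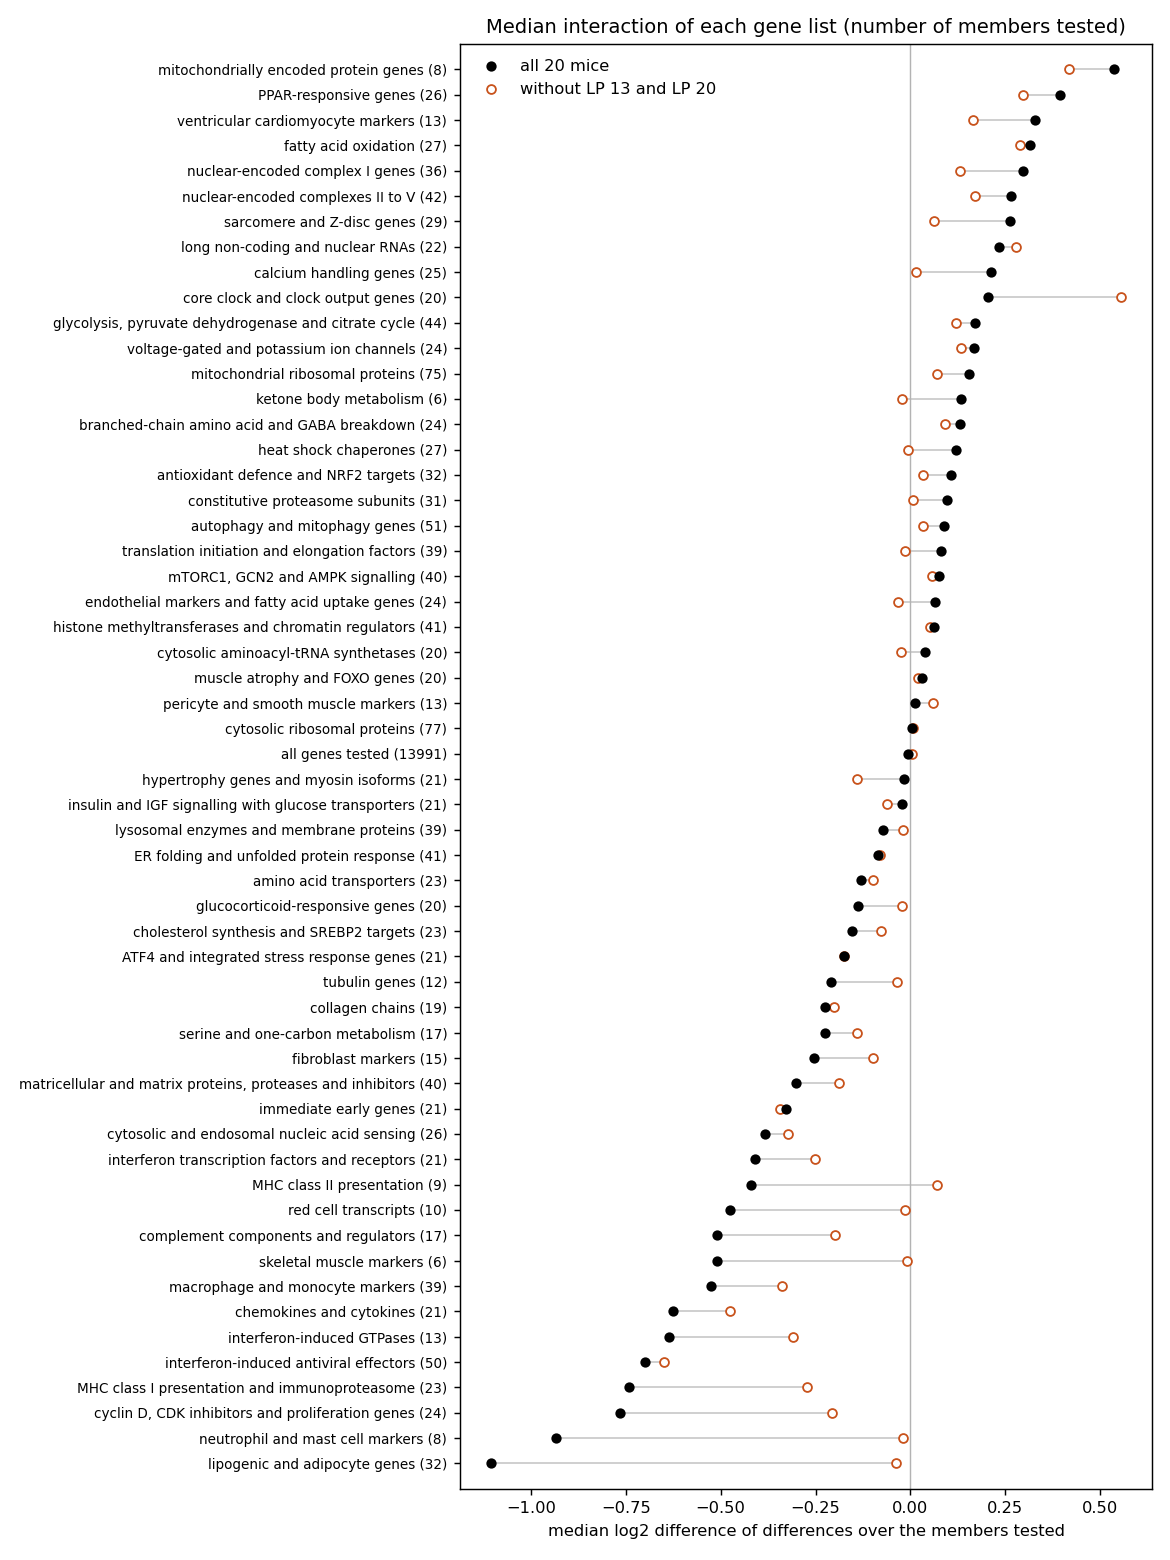
Median interaction (log2 difference of differences) over the tested members of the gene lists and of all genes tested, with the number of members in parentheses, for all 20 mice (filled) and without LP 13 and LP 20 (open). Interferon effectors stay near −0.70 and −0.65, lipogenic genes move from −1.10 to −0.04, and fatty acid oxidation genes stay at 0.32 and 0.29; the atrial, adipocyte, and lymphocyte lists are off the scale and not drawn.

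Pathways that sense or handle amino acids had between 0 and 2 genes per list at an unadjusted p under 0.05. Of the 16 ATF4 and integrated stress response genes with a base mean over 50 none had an interaction at an unadjusted p under 0.05, and the median of the 21 tested was −0.18, which ran from −0.27 without HF + LP 3 to −0.06 without HF 2. Asns, which makes asparagine and is a classical ATF4 target, had a base mean of 38.6 and an interaction of −1.46 (SE 0.44), whereas Atf4 itself had −0.18 (SE 0.21), between −0.31 and −0.06 with 1 mouse left out. Amino acid transporters had 1 of 17 higher (Slc38a3) and 1 lower (Slc7a7), and serine and one-carbon genes had 1 of 8 lower (Mthfd2), with 0 in both lists without LP 13 and LP 20. Of 24 genes of branched-chain amino acid and GABA breakdown 1 was lower with and without both mice, Abat, which degrades the transmitter GABA. Abat was 97.7 to 156 in HF and 24.8 to 72.3 in HF + LP, without overlap, and its interaction lay between −1.20 and −0.83 with 1 mouse left out. The promoter search found the ATF4 site TGATGNAA, on both strands, in 7 of the 19 promoters of the ATF4 and integrated stress response list, against 3.97% of all promoter windows and 2.77% of those of genes with a base mean over 50. None of 20 cytosolic aminoacyl-tRNA synthetases, 38 genes of mTORC1, GCN2, and AMPK signalling, 77 cytosolic ribosomal proteins, 39 translation factors, 31 proteasome subunits, and 20 atrophy genes had an interaction at that p. Their medians lay between 0.004 and 0.095. Leaving out LP 13 and LP 20 gave 1 higher gene of amino acid sensing and 1 lower atrophy gene. Of 51 autophagy genes 1 was higher, and of 38 genes of the unfolded protein response 1 was lower, and neither list had such a gene without LP 13 and LP 20. Core clock and clock output genes had 0 of 18 and a median of 0.21, which was 0.49 without LP 13, 0.55 without LP 13 and LP 20, and 0.06 without HF + LP 1. The E-box CACGTG, which clock factors bind, was in 5 of 17 of their promoters (29.4%), in 7.15% of all windows, and in 12.2% of those of genes with a base mean over 50.

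Body weight was the other library measure tested. LP mice weighed 10.4 g less than NP mice and HF + LP mice 10.3 g less than HF mice. The difference of these differences was 0.08 g (two-sided permutation test with 100000 permutations over 20 mice, p = 0.986). Leaving out 1 mouse at a time placed it between −2.24 and 2.52 g, a range that shows the pull of single mice and is not an interval for the difference. Within groups the SDs were 7.8 g (NP), 2.7 g (LP), 1.8 g (HF), and 5.9 g (HF + LP), so these weights bound an interaction only loosely.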

How the data were processed

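Left ventricular RNA of 20 mice was prepared with QuantSeq 3′ mRNA kits; the authors aligned reads with BlueBee and deposited raw counts per Ensembl gene and mouse. The submitters' processing notes name GRCm38 and DESeq2 1.22.2; the counting program, and so how reads of overlapping genes or near-identical copies such as MHC class I genes were assigned, is not given in the sources used here. The table lists 15956 genes, the lowest with 60 counts in all, and total counts ran from 12559607 to 23331907 per mouse.

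Groups came from the labels. Symbols (15917 genes) and positions are from GENCODE M21. In R 4.3.3 with edgeR 4.0.16, genes passing filterByExpr were scaled by TMM and fitted as 4 group means over all mice with the quasi-likelihood test, and p-values were adjusted by Benjamini-Hochberg over all genes tested. The study's thresholds for a call were kept (adjusted p below 0.01, base mean above 50). SEs were derived from the F statistic. Library measures were tested by permuting residuals of the additive model 100000 times. Alternatives were RLE, DESeq2 1.42.0, limma 3.58.1, robust fitting, other filters and thresholds, the library name number or animal number as a term, no mitochondrial genes, and each mouse left out, with more chosen after seeing the data. The test was tried on simulated counts.

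Genes named are the 10 in each direction with the smallest p at a base mean over 50 and, from 58 gene lists, anchors and up to 4 members with the smallest p; not all are reported here, and genes outside this rule are said to be so. The members and lists were chosen with earlier results of these data known. Lists are described by counts and medians only. The mice were group-housed per the study's methods, and which mice shared a cage or litter is not given in the sources used here.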

Additional observations from a re-analysis of the deposited data

Results flagged for a closer look

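In 220 groups of 5 mice (library measures, named genes on the scale log2(normalized count + 1), and lead gene lists) 9 had 1 mouse far from the other 4 by Dixon's criterion, and chance alone flags about 1 group in 20. LP 20 stood apart in LP with a Trbc2 count of 6009, above the other LP mice, and an Atf4 count of 1042, below them. HF 3 was high in HF for Ucp1 (569), the mouse that also had adipocyte transcripts. HF 4 was low in HF for Gm42972 (42.2). In HF + LP, mouse 5 was low for Isg15 (101) and for the level of the MHC class I list (−0.60), mouse 1 was low for Fasn (123), and mouse 3 was high for Scd1 (215). NP 5 was high in NP for Adar (197). What sets these mice apart was not tested.

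The share of mitochondrially encoded counts responded to protein restriction differently at the fat levels by the permutation test given above, with a difference of differences of 7.46 percentage points.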

How the results depend on the processing

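The count of genes called for the interaction was 0 under every alternative tried except DESeq2, which called 1; DESeq2 also called 16 genes for HF + LP minus HF and 4 for LP minus NP, against 0. With each mouse left out the called counts were 0 to 0 for the interaction, 0 to 1 at high fat (1 without HF 1), and 0 to 0 at normal fat. The 620 genes with an unadjusted p under 0.05 became 1003 without the base mean minimum, 290 without LP 13 and LP 20, 319 without HF 3 too, 380 with atrial and adipocyte marker levels as covariates, 462 higher plus 362 lower with the clock gene level as covariate, and 446 to 911 with each mouse left out. Leaving out mice or adding terms lowers the residual degrees of freedom by construction; beyond that, causes were not tested.

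Animal numbers did not pair mice: same-numbered mice correlated between −0.548 and 0.487, and 3 of 10 HF and HF + LP mice were closest to their own number. With the animal number as replicate block, the 5 mice whose number occurs in 1 group no longer contribute. These are NP 6, NP 8, LP 13, LP 15, and LP 20, so LP then rests on LP 2 and LP 5. In this setting 421 genes had an unadjusted p under 0.05, and Bmp10 reversed to 1.36. List medians were −0.23 for interferon effectors, −0.27 for MHC class I, −0.0166 for macrophage markers, −0.13 for matrix genes, and 0.16 for complex I. The body weight interaction was 5.21 g (permutation test, p = 0.0407).

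The MHC class I median was −0.27 without LP 13 and LP 20, −0.34 without HF 3 too, and −0.33 with the marker covariates, and −0.87 to −0.45 (without HF 5) with each mouse left out. The complex I median was 0.15 in limma-voom, 0.13 without LP 13 and LP 20, and 0.13 without HF 3 too. Without these 3 mice Ucp1 reversed to 0.998 and Scd1 to 0.17. Of 45 named genes, 42 kept their direction in all settings run. With each mouse left out, interferon effector medians ran from −0.92 (without NP 5) to −0.47 (without HF 2), fatty acid oxidation medians from 0.27 to 0.37, body weight differences from −2.24 to 2.52 g, and mitochondrial share differences from 6.23 to 8.67 points. Depth was not varied.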
